A study of Mus musculus with 4 samples.

Results

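The genes described here are 10 negative feedback regulators of the mitogen-activated protein (MAP) kinases: the dual specificity phosphatase genes Dusp1, Dusp2, Dusp4, Dusp5, Dusp6 and Dusp10, the Sprouty genes Spry1 and Spry2, and the Spred genes Spred1 and Spred2. They were chosen by gene symbol in the array's platform annotation, and all 10 were found, each with 1 transcript cluster, among 29860 named genes. The 1-colour arrays hold RNA of regulatory T cells, the CD4 T cells that depend on the transcription factor Foxp3, taken from spleen at an age of 7 to 8 weeks. Both groups carried B6-Tg(Foxp3EGFP-cre)1cJbs/J, a transgene that places green fluorescent protein and Cre recombinase under Foxp3 control, and cells were sorted by that fluorescence. The arrays labelled WT (replicates 1 and 3) came from this transgene on C57BL/6. The arrays labelled KO (replicates 1 and 2) came from the transgene combined with BMI1-flox, in which Cre is meant to delete Bmi1, a subunit of Polycomb repressive complex 1, in cells that express the transgene. The titles and the treatment field describe cells that were not stimulated, whereas the series text describes 24 h with antibodies to CD3 and CD28, and which holds was not settled here. The labels do not say whether each array stands for its own animal or for pooled animals, and the p-values cover only the spread among these 4 samples, which may be technical.

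MAP kinases carry signals from the T cell receptor, CD28 and cytokine receptors to the nucleus. The ERK branch runs from Ras through Raf and MEK, and the JNK and p38 branches also respond to stress. ERK activity induces many of its own brakes: the DUSP phosphatases remove the activating phosphates from the kinases themselves, whereas Sprouty and Spred proteins act further up, between the receptor and Raf. For this reason transcripts of these genes are widely read as markers of recent MAP kinase signalling.

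Promoter sequences show how different the starting points of these genes are. RefSeq (GRCm38.p6) held a start site window for 9 of the 10 genes, all but Dusp4. The 250 bases before the start are printed for 3 of them: Dusp1, which had the smallest p of the 10, Dusp5, which had almost no difference, and Dusp6, which had the widest spread between arrays. Capitals mark letters that match a motif of factors known to act downstream of MAP kinases. The motifs searched on both strands were the CRE (TGACGTCA), its core (TGACG, which also lies within the full CRE), the AP-1 site (TGANTCA), the ETS site (CCGGAA) and the serum response element, or CArG box. The TATA box (TATAAA) was searched as well.
Dusp1, chr17:26508473-26508722, minus strand: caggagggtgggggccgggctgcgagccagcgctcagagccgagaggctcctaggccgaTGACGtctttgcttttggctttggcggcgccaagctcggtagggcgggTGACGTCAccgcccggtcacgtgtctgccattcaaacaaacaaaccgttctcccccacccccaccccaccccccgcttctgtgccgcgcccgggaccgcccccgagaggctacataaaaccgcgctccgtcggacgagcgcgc
Dusp5, chr19:53528895-53529144, plus strand: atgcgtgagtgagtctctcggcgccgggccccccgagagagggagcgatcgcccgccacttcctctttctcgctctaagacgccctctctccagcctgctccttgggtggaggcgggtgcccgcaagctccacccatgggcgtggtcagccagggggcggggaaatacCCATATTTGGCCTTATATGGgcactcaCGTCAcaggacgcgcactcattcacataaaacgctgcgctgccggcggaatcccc
Dusp6, chr10:99262981-99263230, plus strand: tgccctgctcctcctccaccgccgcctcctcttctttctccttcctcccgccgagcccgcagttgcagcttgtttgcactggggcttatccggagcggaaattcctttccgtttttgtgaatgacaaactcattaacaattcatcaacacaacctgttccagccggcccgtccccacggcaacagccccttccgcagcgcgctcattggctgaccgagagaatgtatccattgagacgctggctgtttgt
The Dusp1 window held 1 full CRE, 143 to 136 bases before the start, and 1 further core. The Dusp5 window held 2 CArG boxes next to each other, from 82 to 63 bases before the start, and 1 CRE core. The Dusp6 window held none of the motifs searched. Over all 32851 windows of the same length, 1.55% held a full CRE, 17.8% a core and 1.47% a CArG box. An AP-1 site was in 6.75%, an ETS site in 12.0% and a TATA box in 12.4%. These shares were not matched for base content. G and C made up 68.4% of the Dusp1 window, 64.0% of that of Dusp5 and 56.4% of that of Dusp6. The median over all windows was 52.4%. Among the other 6 genes with a window, Spred2 held 1 CRE core and Dusp2, Dusp10, Spry1, Spry2 and Spred1 held no match. A match is a description of letters and not evidence of binding, and the arrays hold no measure of binding.

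The targeted gene went against its label. Bmi1 read 8.98 and 8.98 in the arrays labelled WT and 9.58 and 9.91 in those labelled KO (log2), a difference of 0.77 (SE 0.16). Which exons its cluster covers, and which were floxed, is not known here, and probes outside the floxed exons would not see the deletion. Every direction below therefore rests on the labels alone. The arrays had medians of at most 5.06 over the named genes, and Pearson's r between arrays was 0.991 to 0.994 across clusters, which are not independent replicates. The sort left clear T cell signal: T cell markers (6 of 8 measured) read 9.35 to 17.62 and regulatory T cell markers (6 of 8) 9.11 to 15.15, with no value for Foxp3, whose cluster is shared with other genes. Monocyte and macrophage markers (8 of 8) read 3.71 to 5.79, dendritic cell markers (6 of 6) 3.41 to 5.82, natural killer cell markers (4 of 5) 4.02 to 6.11, B cell markers (7 of 8) 3.86 to 7.91 and erythroid markers (2 of 6) 4.32 to 4.82. Plasma cell markers (7 of 7) read 4.21 to 11.50, the highest being Xbp1, which other cells also use. Of the CD8 T cell markers (4 of 4), Cd8a read 4.07 to 4.23, whereas Cd8b1 read 9.74 to 11.26. The table has no detection call.

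None of the 10 feedback genes passed a Benjamini-Hochberg adjusted p under 0.05 in limma, a linear model with a pooled estimate of the spread, fitted on all 29860 genes. In that fit 0.0067% of all genes passed, 2 upward and 0 downward. At an unadjusted limma p under 0.05, 1 of the 10 was higher (Dusp1) and 0 were lower, where 6.45% of all genes were higher and 3.81% lower. The 10 genes had 6 differences above 0, 3 below and 1 at 0, and their median was 0.03, beside 0.01 over all genes (log2, KO minus WT). Centring or quantile normalization left 5 above 0, and leaving out each array in turn 5 to 7. The 2 groups were separate for Dusp1, Dusp6 and Dusp10, with both arrays labelled KO higher, and for Dusp2, with both lower. Of all genes, 21.1% were separated upward and 17.5% downward in this way, so the shares among the feedback genes were near the background. With 2 arrays in each group, the smallest two-sided p of an exact permutation test is 0.333.

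**Figure D1:**
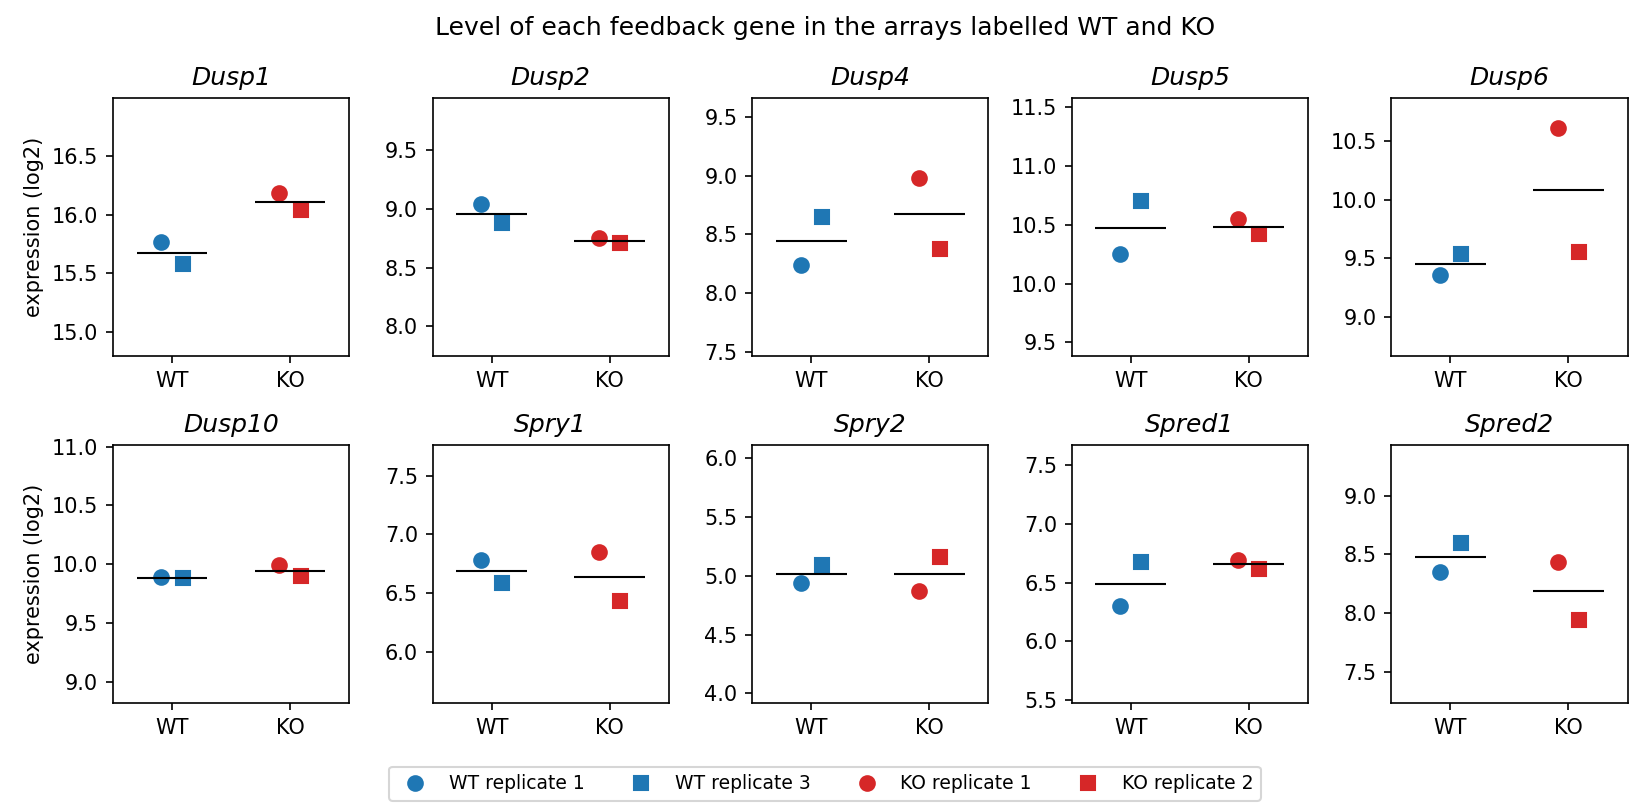
Expression (log2, y axis; each panel spans the same range) of the 10 feedback genes in the arrays labelled WT (blue) and KO (red), with circles and squares for the 2 replicates of a group and a line at the group mean. The 2 red points of Dusp1 (16.18 and 16.04) lie above both blue points, and the 2 red points of Dusp6 (10.61 and 9.55) lie far apart.

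Dusp1 and Dusp2 encode phosphatases of the nucleus that T cells make within minutes to hours of stimulation. Dusp1 inactivates p38 and JNK as well as ERK, and its transcript is also induced by heat and other stress. Dusp1 read 15.77 and 15.58 in WT replicates 1 and 3, and 16.18 and 16.04 in KO replicates 1 and 2. Both arrays labelled KO lay above both labelled WT, and the gap between groups was larger than the gap within either. The difference was 0.43 in log2 units (SE 0.09), 1.35-fold (95% interval 1.15 to 1.59), with a limma p of 0.00514, or 0.298 after Benjamini-Hochberg adjustment. Of all genes, 1.72% had a p as small.

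Dusp1 sits at the bright end of the array, where most genes leaned the same way. Of the 554 genes with a mean at or above 15, a level chosen after its values were seen, 510 had a difference above 0, and the median of all 554 was 0.17. A difference as large as that of Dusp1 was found in 19 of these genes (3.43%). After a further quantile normalization, which gives the 4 arrays 1 distribution, the difference of Dusp1 was 0.24 (limma adjusted p 0.550). Without each of the 4 arrays in turn it was 0.34 to 0.53.

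Genes known to respond to heat and handling of cells were read beside Dusp1. In a list of 9 such genes, 8 were measured, with 5 above 0 and 3 below, a median of 0.16 and 0 past the adjusted threshold. At an unadjusted limma p under 0.05, 3 of the 8 were higher and 0 lower, beside 6.45% and 3.81% of all genes. The inducible chaperone gene Hspa1a read 5.52 and 5.35 in the arrays labelled WT and 7.71 and 7.00 in those labelled KO, a difference of 1.92 (SE 0.25, limma adjusted p 0.197). Dnajb1, a chaperone of the same system, read 8.20 and 8.24 against 8.83 and 8.79, a difference of 0.59 (SE 0.12). The groups were separate for Hspa1a and Dnajb1, as they were for Dusp1. Of the 8 measured genes, 3 were separate with both arrays labelled KO higher, 1 with both lower, and 4 overlapped. Of all genes, 21.1% were separated upward and 17.5% downward. Zfp36, which encodes an RNA-binding protein that promotes mRNA decay, had -0.36 (SE 0.23) and the antiproliferative gene Btg2 -0.11 (SE 0.13). The summed linear level of the list, in which the brightest genes weigh most, was 15840 to 18342 in the arrays labelled WT and 16751 to 17987 in those labelled KO. Its part in the difference of Dusp1 was not tested.

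Some cell type markers also differed between the groups, none of them past the adjusted threshold. Of the T cell markers 5 of 6 were higher under the KO label, with Cd3e, a chain of the T cell receptor complex, at 0.57 (SE 0.06, limma adjusted p 0.134). Cd3e, Cd3d (0.155), Cd3g (0.095) and Cd5 (0.115) read above 15. At that bright end 510 of 554 genes were higher, with a median of 0.175. The summed linear level of the T cell markers was 411611 to 421459 in the arrays labelled WT and 479809 to 496647 in those labelled KO. Of the plasma cell markers 6 of 7 were higher, with Jchain, which joins antibody units, at 1.03 (SE 0.13, limma adjusted p 0.195) and Mzb1 at 0.40 (SE 0.10, limma adjusted p 0.343). Their summed level was 2282 to 2709 and 2629 to 3289. Of the CD8 T cell markers 2 of 4 were higher, with Eomes, a transcription factor gene of cytotoxic cells, at 1.07 (SE 0.37, limma adjusted p 0.429), and a summed level of 1003 to 1922 and 1876 to 2851. Cd8b1 had 0.725 (SE 0.38), whereas Cd8a had -0.10 (SE 0.08) and Gzmk -0.095 (SE 0.16). Of the regulatory T cell markers 3 of 6 were higher, and Lrrc32, the anchor of latent TGF-beta, had -1.33 (SE 0.25, limma adjusted p 0.286). Their summed level was 80831 to 84259 and 74609 to 81806. Of the monocyte and macrophage markers 3 of 8 were higher, with Cd68 at 0.48 (SE 0.17) and Lyz2 at -0.25 (SE 0.08). Higher under the KO label were also 0 of 6 dendritic cell markers, 1 of 7 B cell markers, 2 of 4 natural killer cell markers and 0 of 2 erythroid markers. The summed level over all genes was also higher, with 96445000 and 98518000 in the arrays labelled WT and 108110000 and 108090000 in those labelled KO. Over protein-coding genes it was 22898000 and 24083000 against 25109000 and 24424000. The part of the marker shifts in the values of the feedback genes was not tested.

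Dusp2, also known as PAC-1, was first described in activated T cells. Dusp2 read 9.04 and 8.88 in WT replicates 1 and 3, and 8.75 and 8.71 in KO replicates 1 and 2. Both arrays labelled KO lay below both labelled WT, the opposite of Dusp1. The difference was -0.23 (SE 0.13), 0.853-fold (95% interval 0.675 to 1.08, limma adjusted p 0.638). Dusp1 and Dusp2 were the 2 of the 10 genes whose difference exceeded the gap within both groups, a share of 20.0% beside 27.4% of all genes.

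Dusp4 and Dusp5 are the other nuclear phosphatases of the set. Dusp4 acts on ERK and JNK, and Dusp5 is specific for ERK and holds it in the nucleus. Dusp4 read 8.24 and 8.65 in WT replicates 1 and 3, and 8.98 and 8.37 in KO replicates 1 and 2. The groups overlapped, with KO replicate 1 the highest and WT replicate 1 the lowest array. The difference was 0.23 (SE 0.26, limma adjusted p 0.837), or -0.075 when KO replicate 1 was left out. Dusp5, whose window holds the paired CArG boxes, read 10.25 and 10.70 against 10.55 and 10.42. Both arrays labelled KO lay between those labelled WT. Its difference was 0.01 (SE 0.19) with a 95% interval of 0.724-fold to 1.40-fold. The sign of so small a value turned when the arrays were centred on their medians or quantile normalized again.

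Dusp6 is the cytoplasmic, ERK-specific phosphatase of the set, and its transcript is a standard readout of ERK activity. Dusp6 read 9.36 and 9.54 in WT replicates 1 and 3, and 10.61 and 9.55 in KO replicates 1 and 2. KO replicate 1 stood apart, while KO replicate 2 was at the level of WT replicate 3. The difference of 0.63 (SE 0.35, 1.55-fold, limma adjusted p 0.629) was the largest among the 10 genes, and 2.21% of all genes differed by as much. It had a 95% interval of 0.828-fold to 2.89-fold. It was 0.10 when KO replicate 1 was left out (limma adjusted p 0.912) and 1.16 when KO replicate 2 was left out (0.795), so 1 array decides its size.

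Dusp10, also known as MKP-5, prefers JNK and p38 over ERK. It read 9.89 and 9.88 in WT replicates 1 and 3, and 9.99 and 9.90 in KO replicates 1 and 2. Although the groups did not overlap, the closest arrays of the 2 groups differed by 1 unit of the second decimal, the precision of the table. The difference was 0.06 (SE 0.12), 1.04-fold (95% interval 0.838 to 1.30, limma adjusted p 0.923).

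**Figure D2:**
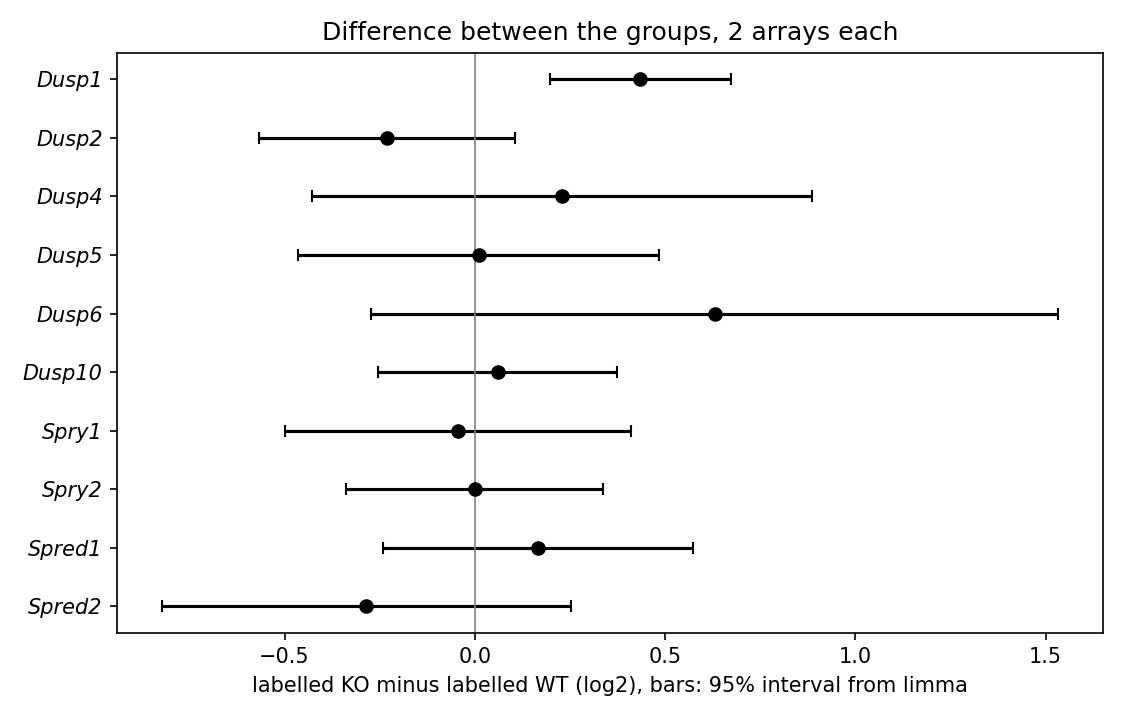
Difference between the arrays labelled KO and WT (log2, x axis) for each feedback gene (y axis), with 2 arrays per group and bars for the 95% interval of the limma fit. The bar of Dusp1 (0.20 to 0.67, not adjusted for the number of genes) stays above 0, and those of the other 9 genes cross it.

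Sprouty proteins restrain Ras and Raf activation below receptor tyrosine kinases and, in T cells, below the antigen receptor. Spry1 read 6.78 and 6.59 in WT replicates 1 and 3, and 6.85 and 6.43 in KO replicates 1 and 2. The arrays labelled KO were at once the highest and the lowest of the 4. The difference was -0.04 (SE 0.18, 95% interval -0.50 to 0.41, limma adjusted p 0.960). Spry2 read 4.94 and 5.09 against 4.87 and 5.16. Its group means were equal at the precision of the table, with a 95% interval of -0.34 to 0.34. These levels are near the array medians and in the range of several markers of cells that the sort removes, so the data do not say whether Spry2 was detected, and a change of it could be understated.

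Spred proteins sit at the membrane and bring neurofibromin, a Ras inhibitor encoded by Nf1, to Ras. Spred1 read 6.30 and 6.68 in WT replicates 1 and 3, and 6.69 and 6.62 in KO replicates 1 and 2. WT replicate 1 was the low array, and the other three lay within 0.07 of each other. The difference was 0.17 (SE 0.16, limma adjusted p 0.808), or -0.025 when WT replicate 1 was left out. Spred2 read 8.35 and 8.60 against 8.44 and 7.94, with KO replicate 2 below the other three. The difference was -0.28 (SE 0.21, 0.821-fold, 95% interval 0.566 to 1.19, limma adjusted p 0.735), or -0.035 when KO replicate 2 was left out.

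Within the group labelled KO, the feedback genes mostly read higher in replicate 1 than in replicate 2. This held for 9 of the 10 genes, all but Spry2, with a median gap of 0.14 (log2), while 45.6% of all genes were higher in replicate 1 and their median gap was -0.01. The gap was 1.06 for Dusp6, which 0.449% of all genes matched or exceeded in either direction. For Dusp4 it was 0.61 (2.26% of all genes), for Spred2 0.50 (4.15%) and for Spry1 0.42 (6.82%). Within the group labelled WT, 6 of the 10 genes read higher in replicate 3 than in replicate 1, with a median gap of 0.16, beside 46.5% and -0.01 over all genes. The widest gaps there were 0.45 for Dusp5, 0.41 for Dusp4 and 0.38 for Spred1. These gaps between single arrays have no replicate and were not tested.

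**Figure D3:**
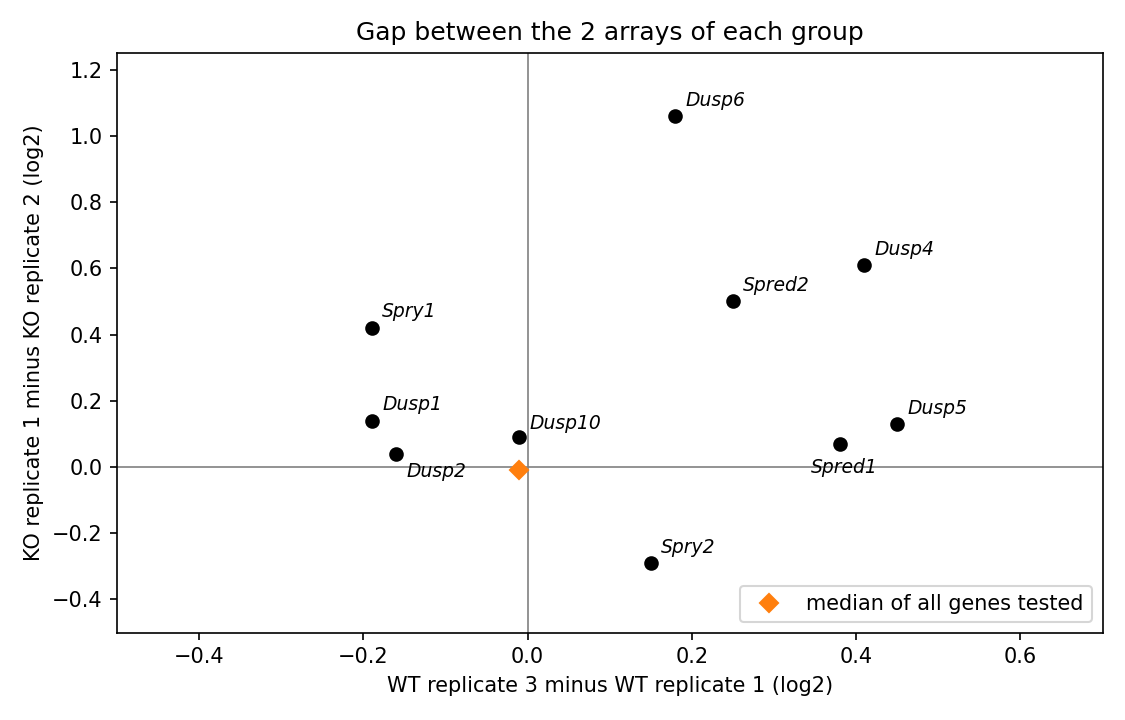
Gap between the 2 arrays labelled KO (replicate 1 minus replicate 2, log2, y axis) against the gap between the 2 arrays labelled WT (replicate 3 minus replicate 1, log2, x axis), with a point for each feedback gene and a diamond at the median of all genes tested. Dusp6 lies at 1.06 on the y axis and Spry2 is the 1 gene below 0 there.

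Genes of T cell activation leaned the same way between the arrays labelled KO. Of a list of 12 such genes, all measured, 10 read higher in KO replicate 1 than in KO replicate 2, with a median gap of 0.17. The ERK target genes described below did not lean so, with 7 of 15 higher in KO replicate 1 and a median gap of 0.00, nor did the Ras to ERK cascade, with 6 of 12 and 0.00. The lean was not particular to the activation genes. Genes of the JNK and p38 cascades had 8 of 13 higher in KO replicate 1 (median gap 0.11). Stress genes had 6 of 8 (0.075) and further dual specificity phosphatase genes 10 of 15 (0.03). Further Sprouty and Spred genes had 0 of 3 (-0.12). T cell markers had 5 of 6 (0.09) and B cell markers 0 of 7 (-0.12). Between the groups 7 of the 12 activation genes had a difference above 0 and 5 below, with a median of 0.15 and 0 past the adjusted threshold. Cd69, an early surface marker of activation, read 14.35 and 14.32 in WT replicates 1 and 3, and 14.93 and 14.65 in KO replicates 1 and 2, a difference of 0.46 (SE 0.11, limma adjusted p 0.348). Nr4a2, a nuclear receptor gene induced by the antigen receptor, had 0.47 (SE 0.22), its relative Nr4a3 -0.19 (SE 0.12) and the costimulatory receptor gene Icos -0.11 (SE 0.12). The summed linear level of the list was 130557 to 136909 in the arrays labelled WT and 140495 to 150395 in those labelled KO. Its highest value was in KO replicate 1. The sum over all genes was also higher under the KO label, with 96445000 and 98518000 (WT) against 108110000 and 108090000 (KO). The part of the activation genes in the values of the feedback genes was not tested.

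The other phosphatase and Sprouty or Spred genes gave no called difference either. Of 15 further dual specificity phosphatase genes, 5 were higher and 10 lower under the KO label (3 higher without KO replicate 1), with a median of -0.07 and 0 at an unadjusted limma p under 0.05. Dusp14 had 0.18 (SE 0.11) and Dusp9 0.15 (SE 0.10). Dusp28 had -0.18 (SE 0.11), and Dusp7, a cytoplasmic ERK phosphatase related to Dusp6, had -0.23 (SE 0.15), from 9.87 and 10.15 to 9.80 and 9.77. All 3 further Sprouty and Spred genes were higher. Spry4, itself an ERK-induced inhibitor, read 3.16 and 3.15 in the arrays labelled WT and 3.43 and 3.55 in those labelled KO, a difference of 0.34 (SE 0.08, limma p 0.00684, limma adjusted p 0.323). Spry3 had 0.12 (SE 0.10). Levels of these 3 genes, 3.15 to 4.47, lay below the array medians.

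The kinases that the feedback acts on were also compared. Of 17 genes of the Ras to ERK cascade, 12 were analysed here. Of the 12, 4 were higher (2 after a further quantile normalization), 7 lower and 1 at 0, with a median of -0.03 and 0 past the adjusted threshold. At an unadjusted limma p under 0.05, 0 were higher and 2 lower (Rasa1 and Braf), beside 6.45% and 3.81% of all genes. Rasa1, which switches Ras off, read 9.98 and 10.04 in the arrays labelled WT and 9.54 and 9.50 in those labelled KO, a difference of -0.49 (SE 0.12, limma adjusted p 0.348). Braf, a kinase that ERK feedback also targets, read 9.19 and 9.08 against 8.84 and 8.72, a difference of -0.35 (SE 0.13, limma adjusted p 0.465). Among the 4 higher genes, the scaffold gene Ksr1 (0.30, SE 0.13) and the Ras activator gene Sos2 (0.28, SE 0.13) had the smallest p.

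Of 14 genes of the JNK and p38 cascades, 13 were measured, 5 higher (8 without WT replicate 3) and 8 lower, with a median of -0.07 and 0 at an unadjusted limma p under 0.05. The JNK kinase gene Mapk9 had 0.17 (SE 0.16) and the p38 gene Mapk14 0.13 (SE 0.14). The upstream kinase genes Map2k4 and Map3k1 had -0.23 (SE 0.14) and -0.26 (SE 0.17).

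The list of ERK target genes was split evenly. It holds mostly genes that are induced along with the feedback genes, and also Elk1, whose protein ERK phosphorylates. Of 19 listed, 15 were measured, 7 higher, 7 lower and 1 at 0, with a median of 0.00 and 0 at an unadjusted limma p under 0.05. Egr1, an early growth response factor, read 6.26 and 6.29 in the arrays labelled WT and 6.33 and 6.13 in those labelled KO, a difference of -0.04. Fos, a subunit of AP-1, read 9.06 and 8.80 against 9.35 and 9.01, a difference of 0.25 (SE 0.18). The AP-1 gene Jun had 0.28 (SE 0.14) and Phlda1 0.26 (SE 0.15). Fosl2 had -0.30 (SE 0.13) and Elk1, an ETS factor that ERK phosphorylates, -0.35 (SE 0.24). The groups overlapped for Egr1 and Fos. Of the 15 genes, 4 were separate with both arrays labelled KO higher (Jun, Phlda1, Myc and Etv5) and 2 with both lower. Over all genes these shares were 21.1% and 17.5%, so the counts in the list were near the background.

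**Figure D4:**
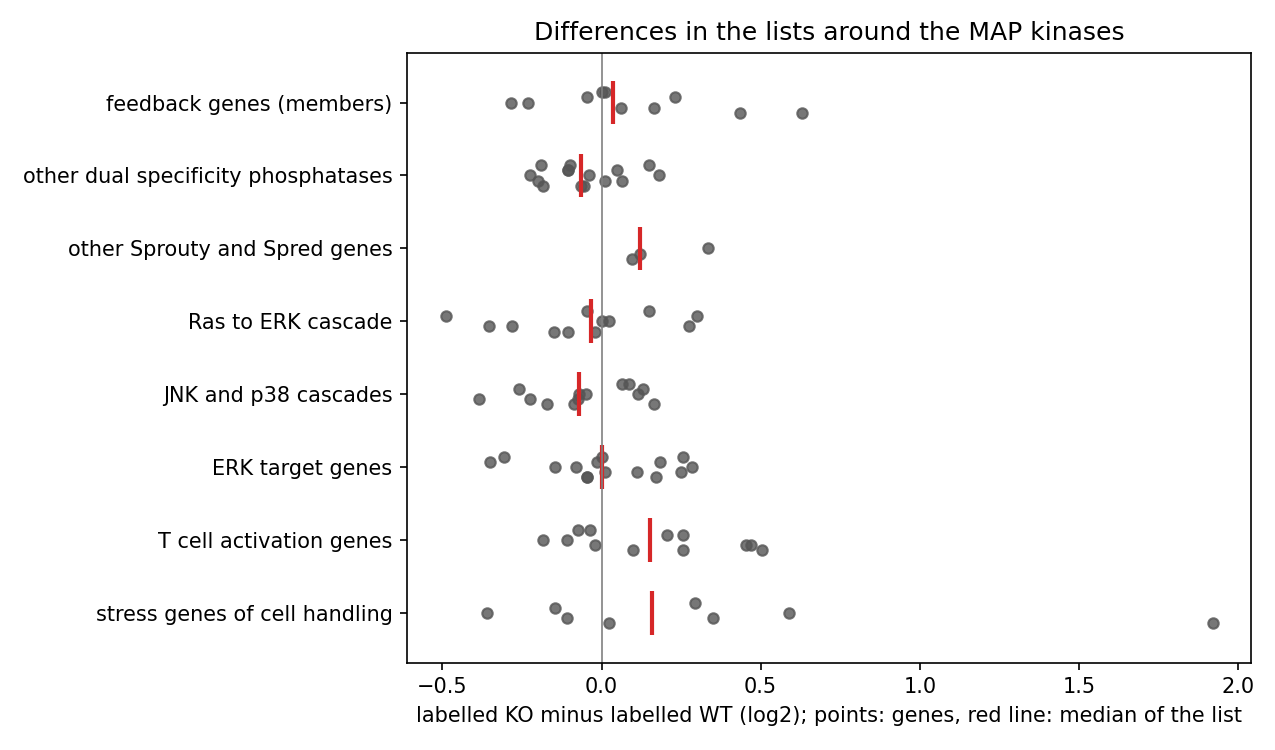
Difference between the arrays labelled KO and WT (log2, x axis) for the genes of each list (rows), with a point per gene and a red line at the list's median. The 8 lists are the feedback genes and those of signalling, activation and stress, without the cell type markers; their medians run from -0.07 to 0.16, and the point at 1.92 is Hspa1a.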

How the data were processed

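The authors deposited log2 levels of 65528 transcript clusters on 4 arrays in 1 table. RMA, a method that normalizes arrays and summarises probes, and Transcriptome Analysis Console are named per the submitters' processing notes. For versions, genome build and labelling, nothing is given in the sources used here. The range of 1.82 to 19.38 and the use of RMA are the basis for reading the values as log2.

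Clusters were named through the platform annotation, with symbols updated by gene identifier or synonym through RefSeq (GRCm38.p6), used only for names and promoter sequences. 30390 clusters had 1 symbol, 2127 had several and were left out, and 33011 were not listed. Where a gene had several clusters (420 genes), the brightest by mean was used.

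Differences (KO minus WT) were fitted with limma 3.58.1 in R 4.3.3 (lmFit, eBayes with an intensity trend, two-sided) on all 29860 genes and checked on simulated data. No dim genes were removed. The median SE was 0.12. Fold values are powers of 2 of the differences. The number of arrays limits the precision.

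Members and lists were chosen with earlier results of these data known. Named were all members, Bmi1, Egr1, Fos and, from each list other than the cell type markers, up to 2 genes per direction with the smallest p; further genes of the rule are not reported here. Xbp1, Myc, Etv5 and the cell type markers were named after their values were seen. Alternatives were other scalings, a brightness filter, all clusters or their mean, other eBayes settings and leaving out each array.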

Additional observations from a re-analysis of the deposited data

How the results depend on the processing

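No feedback gene passed the adjusted threshold under any of the 11 alternatives run, and the members' adjusted p-values lay between 0.189 and 1 in limma. Of the 99 values this gave for the 9 genes other than Spry2, 91 kept their direction and 8 turned. Many of the 91 could not turn. With 1 cluster per member, the brightness filter, the cluster choices and the eBayes settings leave each difference unchanged. Only the other scalings and leaving out an array could turn a direction. Spry2, at 0, has no direction to turn, ran from -0.145 to 0.145 and was below the brightness filter. Dusp5 turned to -0.005 when arrays were centred on their medians, to -0.049 after a further quantile normalization, to -0.215 without WT replicate 1 and to -0.055 without KO replicate 1, with a range of -0.215 to 0.235 over the arrays left out. Over the arrays left out, Dusp4 had a range of -0.075 to 0.535, Spry1 of -0.255 to 0.165, Spred1 of -0.025 to 0.355 and Egr1 of -0.145 to 0.055. The count of all genes higher past the threshold, 2, became 1 after centring, 0 after quantile normalization, 10 among the brighter genes alone, 1 over all clusters, 0 without a trend, 0 with robust settings and 0 without any 1 array. The count of lower genes, 0, became 4 among the brighter genes and 3 over all clusters. Centring and quantile normalization moved the median of all genes by -0.015 and -0.00625. The causes were not tested. No paired analysis was possible because the groups share 1 replicate number in the labels, and 2 or more are needed. Depth cannot be given for arrays. Without a detection call, low levels such as those of Spry2 and Spry4 limit what can be read from them.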
